A study of Mus musculus with 6 samples.

Results

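Orphan and lipid-sensing G protein-coupled receptors, together with the RGS proteins that limit their signals, were followed in a mouse lymphoid cell line and in a derivative of it that had recovered from mannitol. The members are the genes whose name in the array files is Gpr with a number, or S1pr, Edg, Lpar, P2ry, Ptger, Adora or Rgs with a number. This rule gave 140 genes of the 27652 that the array names, measured by 199 probes. The rule is broader than a receptor list. It holds 110 receptors, 20 genes named for RGS proteins (1 of them, Rgs9bp, is a binding partner of Rgs9), and 10 membrane proteins with a Gpr name that are not classed as G protein-coupled receptors, among them the riboflavin transporter Slc52a2 and the Wnt carrier Wls. Where a symbol has changed, the current one is used here, so Gpr97 and Gpr56 appear as the adhesion receptors Adgrg3 and Adgrg1.

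Receptors of this superfamily cross the membrane 7 times and act through G proteins made of an alpha subunit and a beta-gamma pair. In lymphocytes, receptors for sphingosine 1-phosphate and lysophosphatidic acid guide migration and exit from tissues. Receptors for prostaglandin E2, adenosine and protons often couple to Gs and raise cyclic AMP, a messenger to which S49 cells are known to be sensitive. RGS proteins speed up GTP hydrolysis by alpha subunits and so end the signal, and receptor kinases and arrestins switch off the receptor itself.

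RNA was taken from 2 lines derived from S49, mouse T lymphoma cells that grow in suspension. Neo (S49 Neo) is the parental line. MR 4-25 is the only mannitol-recovered line in the series; mannitol is a sugar alcohol that raises the osmolarity of culture medium. Both lines were untreated when sampled, grew in the same RPMI-1640 medium with serum, glutamine and antibiotics, and gave 3 samples each, with 1 Agilent single-colour (Cy3) array per sample. Whether the 3 samples of a line were separate cultures is not stated, and the p-values cover only the spread among them, possibly technical. With 1 line on each side, the history of mannitol treatment and other differences between these cell lines cannot be told apart.

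Levels are log2 signals relative to the 75th percentile of the gene spots of the same array, so 0 is that percentile, and a difference is MR 4-25 minus Neo. A level compares arrays for 1 probe and does not rank probes against each other. Probes not well above background often share a bottom value of their array. It was −8.13, −8.12 and −8.42 on Neo 1, 2 and 3, −8.32 on MR 4-25 1 and −6.97 on MR 4-25 3. Such a value is not a measured level, and among these arrays it was highest on MR 4-25 3. Slide 1 carried replicates 1 and 2 of both lines and slide 2 replicate 3 of both. MR 4-25 3 was the dimmest array: 61.3% of probes were well above background on it, against 69.9% to 76.2% on the other 5, and its 75th percentile was 521 intensity units against 844 to 988. All 10 T cell markers were well above background on all 6 arrays, and 6 of them lay above the 75th percentile on every array. Of the markers of other cells, 2 of 5 for B cells, 5 of 6 for myeloid cells, 0 of 4 for NK cells, 2 of 4 for red cells and platelets and 4 of 4 for fibroblasts were well above background on all 6 arrays, but none of these lay above the 75th percentile on all 6.

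Probes of Adgrg3 and Rgs3 are shown first, because these genes held the 3 member probes that passed when every probe was tested. In all, 44 members had more than 1 probe. For Adgrg3 the probe shown is the dimmer of 2, and the reported call rests on the brighter one, whose position is given with its values. All are 60 bases long, are given 5′ to 3′ in lower case and come from the array files. Positions are on mouse build mm7 as the files give them. Both genes lie on the plus strand. No transcript model of that build was used here, so exon and UTR are not given. The dimmer Adgrg3 probe lies at chr8:93628914-93628973.
Adgrg3 A_52_P397401: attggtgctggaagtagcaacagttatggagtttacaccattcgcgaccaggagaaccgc
The brightest Rgs3 probe lies at chr4:62123297-62123356, and the next 3 lie at chr4:62134072-62134749, chr4:62134854-62135772 and chr4:62135803-62135862. The first and second of those 3 span 678 and 919 bases of genome, more than the 60 bases of the probe, so each joins separate pieces of the gene.
Rgs3 A_52_P522134: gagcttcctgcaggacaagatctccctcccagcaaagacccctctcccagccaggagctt
Rgs3 A_52_P261868: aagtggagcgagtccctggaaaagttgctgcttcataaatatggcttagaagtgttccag
Rgs3 A_51_P223583: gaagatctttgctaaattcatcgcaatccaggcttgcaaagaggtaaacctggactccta
Rgs3 A_51_P253320: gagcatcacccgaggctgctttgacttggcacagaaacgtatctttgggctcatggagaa

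Many members were near background in these cells. A probe is well above background where the scanner software marks its signal as clearly brighter than the surrounding array. By that mark, read on the brightest probe of each gene, 55 of 140 members (39.3%) were detected on all 6 arrays, against 55.1% of all named genes, and 17 (12.1%) on none, against 14.4%. The rest were detected on some arrays and not on others. In Neo 71 members were well above background on all 3 arrays, in MR 4-25 57, and 55 in both. The number per array was 88, 104 and 101 in Neo and 102, 93 and 74 in MR 4-25, so the lower count in MR 4-25 came with its dimmest array. Without MR 4-25 3, 88 members were well above background on both other arrays of that line; in Neo, the same count over 2 arrays was 74 to 89. No member was detected on all 3 arrays of one line and on 0 of the other. The part of array brightness in these counts was not tested.

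**Figure D1:**
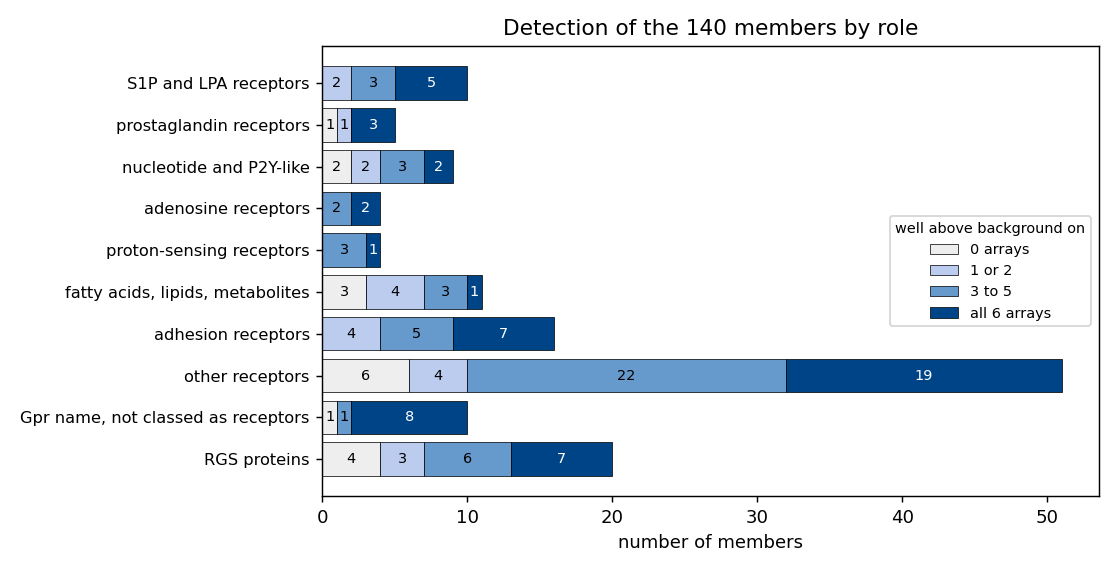
Number of members in each role (horizontal bars, number of genes) by how many of the 6 arrays found the brightest probe well above background. Of the 10 Gpr-named proteins that are not classed as receptors 8 were detected on all 6 arrays, and of the 11 receptors for fatty acids, other lipids and metabolites 1 was.

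To be tested, a member needed a probe well above background on 3 or more arrays, which 103 members had; 37 did not, 17 of them on 0 arrays and 20 on 1 or 2. In the limma comparison of MR 4-25 with Neo, 1 of the 103 members fell and 0 rose at an adjusted p under 0.05 (Benjamini-Hochberg over 21341 genes). Over all genes 1.23% were called, 0.675% higher and 0.558% lower, so 1 call in 103 (0.971%) is near the background. At an unadjusted p under 0.05 there were 9 members (8.74%) against 13.3% of all genes: Adgrg1, Adgrg3, P2ry10, Gpr132 and Gpr160 lower, and Rgs2, Rgs12, Gpr171 and Wls higher. The lines did not overlap for 16 tested members, 7 higher and 9 lower in MR 4-25 (15.5%), against 24.3% of all genes. The median difference of the tested members was 0.11 and that of all genes tested was 0.01. By other fits across all genes, 2 members passed with slide as a block (1.58% of all genes), 4 with an intensity trend and robust fit (3.36%), 9 with array weights (9.46%) and 0 with a replicate block (0.00469%). Without the filter the medians were 0.19 for all 140 members and 0.10 for all genes. These medians include members at the bottom value of an array. Rgs1 and P2ry12, for example, stood at −8.42 on Neo 3 and −6.97 on MR 4-25 3. The part of such values in the medians was not tested.

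**Figure D2:**
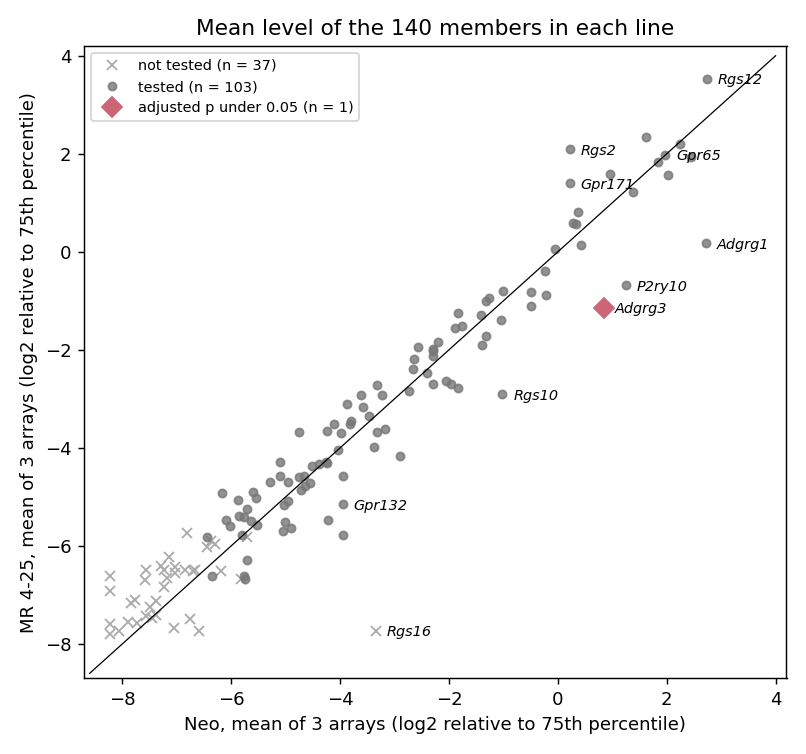
Mean level in Neo (x axis) against mean level in MR 4-25 (y axis), both log2 relative to the 75th percentile of the array, for all 140 members; the line marks equal levels. The diamond is Adgrg3, the 1 member past the test. The crosses are the 37 members that were not tested, most of them at the dim end.

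How far a lack of calls can be read differs between members. The 95% interval of the difference stayed within a 2-fold change either way for 13 of the 103 tested members (12.6%), against 38.6% of all genes tested. For the other 90 members, a difference of 2-fold or more lies inside or beyond the interval. The median standard error was 0.64 over the tested members and 0.37 over the 55 detected on all 6 arrays.

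The adhesion receptors, which carry long extracellular parts and a self-cleaving domain, held the call. Adgrg3, an adhesion receptor known from leukocytes, had levels of 0.87, 0.69 and 0.98 in Neo 1, 2 and 3 and of −0.86, −1.20 and −1.38 in MR 4-25 1, 2 and 3. Every MR 4-25 array lay below every Neo array. Adgrg3 fell 3.98-fold, a change of −1.99 ± 0.20 in log2 (SE, n = 3 per line, 95% interval −2.50 to −1.49, limma adjusted p = 0.0209). In RNA from a whole culture, fewer expressing cells and less RNA per cell cannot be told apart. The difference was −1.81 on slide 1 and −2.36 on slide 2, and with slide as a block the adjusted p was 0.0306. The probe, on chromosome 8 from 93634133 to 93634192 of mm7, was well above background on all 6 arrays.

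The second Adgrg3 probe, the one printed above, gave levels of −3.01, −3.16 and −2.76 in Neo and −5.12, −5.25 and −5.58 in MR 4-25. It too separated the lines, with a difference of −2.34 ± 0.20 (SE, n = 3 per line) and an adjusted p of 0.0149 over all 30965 probes, although in MR 4-25 it was well above background on 2 of 3 arrays. The Adgrg3 call changed with the arrays used: the adjusted p was 0.140 without Neo 1, 0.130 without Neo 2, 0.115 without Neo 3, 0.0780 without MR 4-25 1, 0.116 without MR 4-25 2 and 0.0382 without MR 4-25 3, with differences of −2.14 to −1.88. With the replicate number as a block it was 0.127, and with normexp background correction 0.0508 (difference −1.54).

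Adgrg1, an adhesion receptor known on cytotoxic lymphocytes and in the developing brain, had levels of 3.04, 2.68 and 2.45 in Neo and of 0.56, 0.77 and −0.81 in MR 4-25. The lines did not overlap, and MR 4-25 3 was the lowest array. The difference of −2.55 ± 0.47 (SE, n = 3 per line) did not pass the test, at an adjusted p of 0.101; with slide as a block it did, at 0.0374, with −2.19 on slide 1 and −3.26 on slide 2. Of the 16 adhesion receptors 12 were tested, with a median difference of −0.26 and a range of −2.55 to 0.62.

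**Figure D3:**
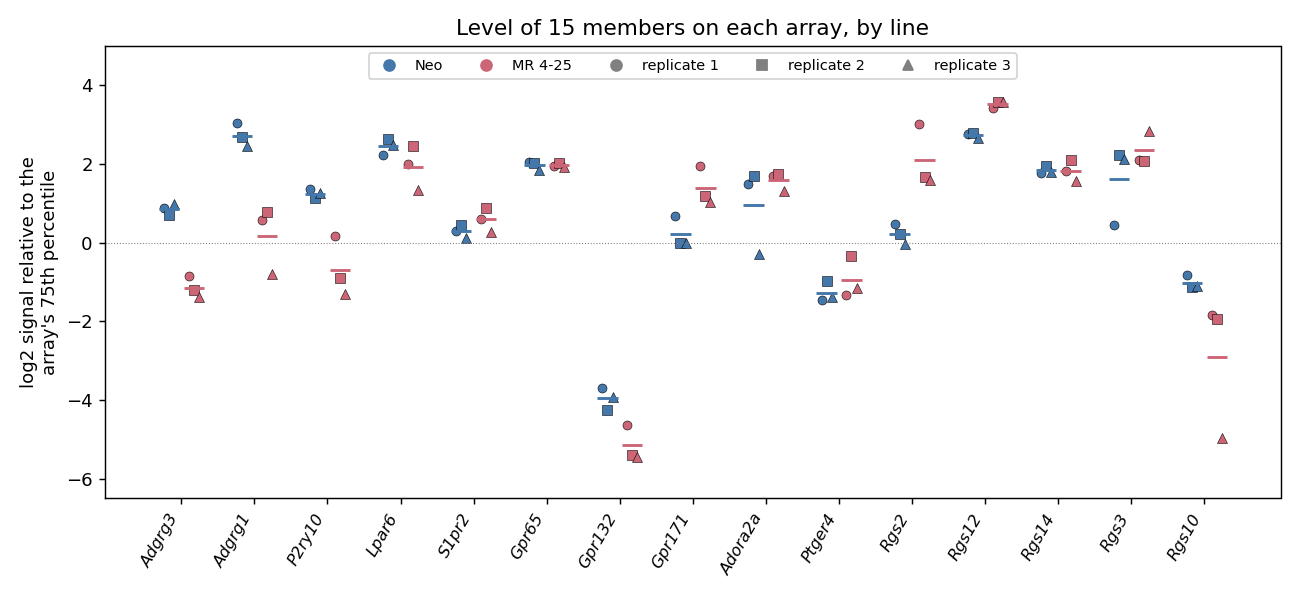
Level of 15 members on each array (y axis, log2 relative to the 75th percentile of the array), with Neo in blue, MR 4-25 in red, a symbol per replicate number and a bar at the mean of each line (n = 3). Adgrg3, Adgrg1, P2ry10 and Gpr132 are lower on every MR 4-25 array than on any Neo array, Gpr171, Rgs2 and Rgs12 higher, and Gpr65 and Rgs14 lie at the same level in both lines.

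The receptors for sphingosine 1-phosphate and lysophosphatidic acid gave no call among 8 tested of 10. On its brightest probe none reached an unadjusted p under 0.05 in limma, and their median difference was −0.42. S1pr2, which couples to G12 and G13 and restrains migration, had levels of 0.30, 0.45 and 0.11 in Neo and 0.60, 0.89 and 0.28 in MR 4-25. On this brightest probe the lines overlapped, and the difference of 0.30 had a 95% interval of −0.24 to 0.85. A second probe was higher on every MR 4-25 array, by 0.63 (−0.01 to 1.28), so a 2-fold change is not left out for the gene. The third differed by 0.10 (−1.62 to 1.82). Lpar6, a receptor for lysophosphatidic acid, had levels of 2.23, 2.63 and 2.47 in Neo and 2.01, 2.45 and 1.34 in MR 4-25, overlapped between lines and differed by −0.51 (95% interval −1.34 to 0.31) on its brightest probe and by −0.49 on the other. Lpar4 was lower on all 3 MR 4-25 arrays, at −0.77, −0.91 and −0.79, than in Neo, at −0.38, −0.63 and −0.47, by −0.33 ± 0.15 (SE, adjusted p = 0.446). A dimmer Lpar4 probe was also lower on every MR 4-25 array, by −0.62 (95% interval −1.18 to −0.06). In limma its unadjusted p was 0.0359 and its adjusted p over all probes 0.307. It was well above background on 2 of 3 MR 4-25 arrays. Lpar2 differed by −0.62 (95% interval −1.55 to 0.30) and S1pr3 by −0.66 (−2.20 to 0.88).

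S1pr1, the receptor that lets lymphocytes leave lymph nodes, could not be compared at this precision. Its levels were −6.18, −2.87 and −3.71 in Neo and −2.95, −2.94 and −6.97 in MR 4-25. Neo 1 and MR 4-25 3 were low and the other 4 arrays high, so the difference of −0.03 has an interval of −3.69 to 3.63. The −6.97 is the bottom value of MR 4-25 3 and not a measured level. S1pr4, another lymphocyte receptor for this lipid, ranged from −7.23 to −2.62 with the highest array of each line on slide 2. S1pr5, known from natural killer cells, was well above background on 1 array of each line, Lpar3 on 1 MR 4-25 array, and neither was tested.

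P2ry10, a lymphocyte receptor for lysophospholipids grouped by name with the nucleotide receptors, had levels of 1.35, 1.14 and 1.25 in Neo and of 0.16, −0.90 and −1.31 in MR 4-25. The lines did not overlap. The difference was −1.93 ± 0.41 (SE, n = 3 per line), a 3.82-fold lower mean, but at an adjusted p of 0.130 it did not pass; it was −1.62 on slide 1 and −2.56 on slide 2. The probe may also bind RNA of the close copy P2ry10b, which was not tested, so which of them it read is uncertain. Of the true nucleotide receptors, P2ry1 for ADP differed by −0.50 (95% interval −2.14 to 1.14) and P2ry2 for ATP and UTP by 0.52 (−3.29 to 4.33). On MR 4-25 3 both probes stood at the bottom value of the array, and on Neo 3 the P2ry2 probe did too. P2ry4, a receptor for UTP, was higher on every MR 4-25 array (−5.60, −4.02 and −5.13 against −6.80, −6.06 and −5.63) but well above background on 1 Neo and 2 MR 4-25 arrays, and its adjusted p was 0.399. P2ry12, the ADP receptor of platelets and microglia, and P2ry14, the receptor for UDP-glucose, were well above background on 0 arrays. Of 9 genes in this role 5 were tested and 0 called; P2ry10 was the 1 gene at an unadjusted p under 0.05.

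Of the 4 proton-sensing receptors, all tested, 0 were called and Gpr132 alone had an unadjusted p under 0.05. Gpr65, which senses extracellular acid and raises cyclic AMP, was first known as a gene of dying T cells. Its levels were 2.04, 2.02 and 1.85 in Neo and 1.96, 2.04 and 1.92 in MR 4-25, so the lines overlapped fully. The difference was 0.00 with a 95% interval of −0.36 to 0.36 (limma adjusted p = 0.993), which leaves out a change of 1.29-fold or more. Gpr132, a related receptor of lymphocytes and macrophages, had levels of −3.69, −4.24 and −3.93 in Neo and of −4.62, −5.39 and −5.45 in MR 4-25, did not overlap and differed by −1.20 ± 0.30 (SE, adjusted p = 0.181). Gpr4, another proton sensor, differed by 0.05 (95% interval −2.84 to 2.94).

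The adenosine receptors were all tested, 4 of 4, and 0 reached an unadjusted p under 0.05 in limma. Adora2a, the Gs-coupled adenosine receptor that restrains T cells, had levels of 1.48, 1.69 and −0.29 in Neo and 1.70, 1.74 and 1.31 in MR 4-25. Neo 3 was the 1 low array. The difference was 0.62 (95% interval −0.82 to 2.06) with it and −0.00 without it. Adora1, coupled to Gi, differed by −0.58 (−1.80 to 0.63) on its brightest probe. Its other 2 probes had the other sign, at 0.88 (−1.01 to 2.77) and 0.32 (−0.30 to 0.94). Adora2b was low on both slide 2 arrays, at −8.42 and −6.65 against −4.98 to −4.83 on slide 1, and Adora3 on Neo 1 and MR 4-25 3, at −5.96 and −6.48 against −1.31 to −0.93 on the other 4. The −8.42 is the bottom value of Neo 3.

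Of the receptors for prostaglandins 3 of 5 were tested and 0 called or at an unadjusted p under 0.05. Ptger4, a Gs-coupled receptor for prostaglandin E2, had levels of −1.46, −0.97 and −1.37 in Neo and −1.32, −0.34 and −1.15 in MR 4-25, overlapped between lines and differed by 0.33 (95% interval −0.48 to 1.14). Ptger1, the calcium-linked receptor, differed by 0.35 (−0.64 to 1.33). Ptger2, the other Gs-coupled receptor, was well above background on 1 array of each line. The brightest Ptger3 probe was so on none, and another of its probes on 1 MR 4-25 array. Ptgdr2, a prostaglandin D2 receptor of type 2 helper T cells, had levels of −0.03 and −0.03 in Neo and 0.07 and −0.19 in MR 4-25 on slide 1, and of −2.97 and −2.27 on slide 2, where both arrays were low.

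Receptors for fatty acids, other lipids and metabolites were the least often detected role, with 4 of 11 tested and 0 called or at an unadjusted p under 0.05. Gpr18, a receptor of lymphocytes, was low on both slide 2 arrays (−6.18 and −6.74, against −4.38 to −4.22 on slide 1). Gpr55, a receptor for lysophosphatidylinositol, differed by −0.58 (95% interval −1.67 to 0.51), and Gpr31b by −1.84 (−5.80 to 2.12). Gpr34 and Gpr174, receptors for lysophosphatidylserine, were well above background on 1 array and on none, Gpr84 and Gpr35 on 2 each.

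Of the 51 other receptors 41 were tested and 0 called, with 2 at an unadjusted p under 0.05, Gpr171 and Gpr160. Gpr171, a receptor of T cells related in sequence to the P2Y family, had levels of 0.67, −0.01 and −0.01 in Neo and of 1.96, 1.19 and 1.04 in MR 4-25. Every MR 4-25 array was above every Neo array, by 1.18 ± 0.34 on average (SE, n = 3 per line, limma adjusted p = 0.233). Gpr160, an orphan receptor, was lower on every MR 4-25 array (−2.58, −2.46 and −3.32 against −1.91, −1.77 and −1.81; difference −0.96 ± 0.27, SE, adjusted p = 0.223). Gpr15, a homing receptor of T cells to the gut, was detected on 0 arrays. Gpr83, known from regulatory T cells, was detected on 2 arrays of each line and ranged from −6.05 to −1.81.

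The Gpr-named proteins outside the receptor superfamily were the role most often detected on all 6 arrays, 8 of 10. Gpr108, a multipass protein of the secretory pathway, had levels of 2.35, 2.35 and 2.04 in Neo and 2.81, 2.31 and 1.48 in MR 4-25, with a difference of −0.05 (95% interval −0.98 to 0.89). Slc52a2 differed by −0.17 (−0.65 to 0.32) and Gpr180 by −0.46 (−1.21 to 0.30). Wls, which carries Wnt proteins to the cell surface, was higher on every MR 4-25 array (−4.49, −4.61 and −3.79 against −5.07, −5.06 and −5.18), by 0.80 ± 0.26 (SE, adjusted p = 0.274). Of the 10 proteins 9 were tested and 0 called; Wls was the 1 at an unadjusted p under 0.05.

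Among the RGS genes 13 of 20 were tested and, on the brightest probe of each, 0 called in limma, with Rgs2 and Rgs12 at an unadjusted p under 0.05. Rgs2, which acts mainly on Gq, had levels of 0.47, 0.23 and −0.03 in Neo and of 3.02, 1.66 and 1.59 in MR 4-25. The lines did not overlap, and the mean was 3.65-fold higher in MR 4-25 (difference 1.87 ± 0.44, SE, n = 3 per line, adjusted p = 0.168). Slide 1 gave 1.99 and slide 2 gave 1.61. A second, dimmer Rgs2 probe overlapped between lines and differed by −0.19 ± 0.41. Rgs12, a large RGS protein that also binds Gi alpha through a GoLoco motif, had levels of 2.77, 2.79 and 2.65 in Neo and of 3.42, 3.57 and 3.59 in MR 4-25. The arrays of each line lay close together and apart from the other line, with a difference of 0.79 ± 0.14 (SE, n = 3 per line, adjusted p = 0.0947).

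Rgs14, which shares the GoLoco motif, had levels of 1.78, 1.95 and 1.80 in Neo and 1.82, 2.10 and 1.56 in MR 4-25. Its difference of −0.01 had a 95% interval of −0.50 to 0.48. Rgs10, a small RGS protein of immune cells, had levels of −0.81, −1.13 and −1.11 in Neo and of −1.83, −1.95 and −4.96 in MR 4-25. The lines did not overlap, but MR 4-25 3 lay far below the rest, and the difference was −0.92 on slide 1 and −3.84 on slide 2 (adjusted p = 0.472). Rgs19, which acts on Gi, differed by 0.60 (95% interval −1.39 to 2.59).

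Rgs16, an inducible RGS protein that limits chemokine signals in T cells, was not tested, because its probe was well above background on 2 arrays. Both were Neo arrays, Neo 2 at −1.25 and Neo 3 at −1.54. Neo 1 at −7.24 and MR 4-25 1, 2 and 3 at −8.32, −7.90 and −6.97 were not well above background. Set against the lowest signal well above background on each MR 4-25 array, the measured Neo mean was 7.39-fold higher. The measured means were −3.34 and −7.73. The fold is not a firm lower bound, because the Neo mean includes Neo 1, which was not well above background. It has no test, and Neo 1 did not share the level of Neo 2 and Neo 3. Rgs1 and Rgs18 were well above background on 0 arrays.

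Rgs3 gave different answers along its length. Its brightest probe, A_52_P522134, had levels of 0.46, 2.24 and 2.14 in Neo and 2.10, 2.09 and 2.85 in MR 4-25. Neo 1 was low and the lines overlapped, with a difference of 0.73 ± 0.56 (SE, n = 3 per line, adjusted p = 0.673). The 3 probes that follow it on the chromosome were lower in MR 4-25 on every array. A_51_P223583 had levels of −2.12, −2.32 and −2.01 in Neo and −3.35, −3.26 and −3.47 in MR 4-25, a difference of −1.21 ± 0.16 (SE) with an adjusted p of 0.0410 over all 30965 probes, where 1.3% of probes were called. A_52_P261868 differed by −1.07 ± 0.27 (adjusted p = 0.175) and A_51_P253320 by −0.83 ± 0.24 (adjusted p = 0.222). The fifth probe, A_51_P211980, furthest upstream, overlapped between lines and differed by −0.10 ± 0.84. With slide as a block the adjusted p of A_51_P223583 was 0.0524, and with a replicate block 0.182.

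**Figure D4:**
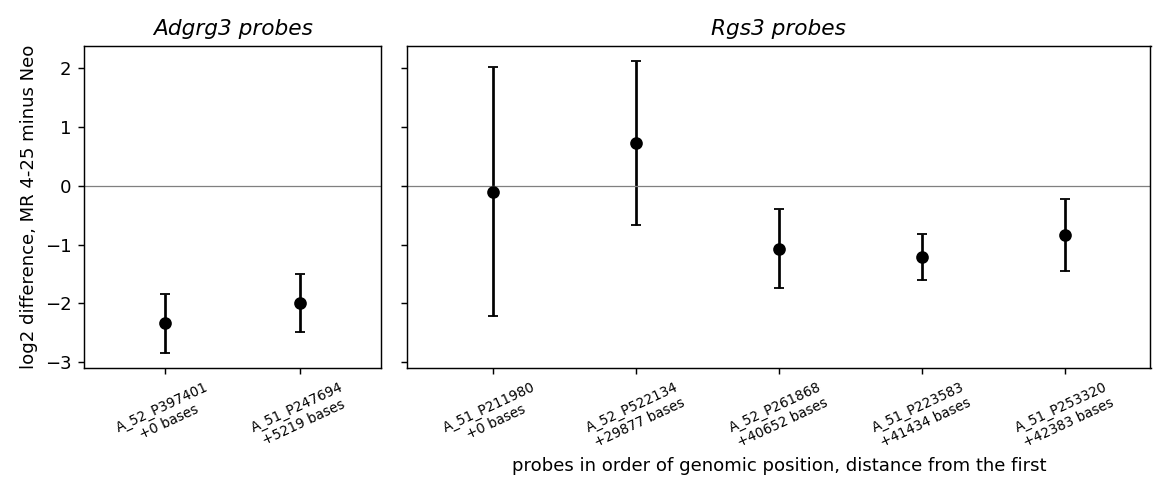
Log2 difference, MR 4-25 minus Neo, of each probe of Adgrg3 (left) and Rgs3 (right) in the order of their positions, labelled with the distance in bases from the first; bars are 95% intervals (n = 3 per line). Both Adgrg3 probes lie near −2, while the 5 Rgs3 probes run from 0.73 to −1.21, with the 3 most downstream below 0.

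Of the 44 members with more than 1 probe, 29 had at least 2 probes tested, and in 16 of these 29 all tested probes had the same sign; a sign near 0 can differ within the error.

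Genes around the receptors were taken from 8 lists of 111 genes that make or remove the ligands or pass on the signal; 109 were on the array and 102 were tested. Of these 1 rose, 1 fell and 100 did not pass, beside 1.23% of all genes called. Pla2g4a, the cytosolic phospholipase A2 that releases arachidonic acid for prostaglandin synthesis, had levels of −6.36, −5.07 and −5.60 in Neo and −2.60, −2.35 and −2.33 in MR 4-25. The lines were far apart, and Pla2g4a rose 9.51-fold on its brightest probe (difference 3.25 ± 0.36, SE, n = 3 per line, limma adjusted p = 0.0272). Slide 1 gave 3.24 and slide 2 gave 3.27; in Neo it was well above background on 2 of 3 arrays. Its second probe, well above background on all 6 arrays, differed by 1.84 ± 0.27 with an adjusted p of 0.0572 over all probes, so the size of the rise is uncertain. Ptgs1, the cyclooxygenase of the next step, was well above background on all 3 Neo and on 0 MR 4-25 arrays, and Ptgs2 on none. The Ptgs1 difference of −1.39 ± 0.49 (SE, limma adjusted p = 0.320) did not pass, and it was −2.03 on slide 1 but −0.11 on slide 2. The list has 10 genes, of which 9 were tested, and none of the other 8 passed.

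Pik3cg, the catalytic subunit of the phosphoinositide 3-kinase that beta-gamma subunits activate, had levels of −0.77, −1.13 and −0.76 in Neo, and on all 3 MR 4-25 arrays it lay below these, with a mean of −2.89 ± 0.14 against −0.89 ± 0.21 (mean ± SD, n = 3). It fell 4.02-fold (difference −2.01 ± 0.18, SE, n = 3 per line, adjusted p = 0.0166), and was the 1 called of 17 tested effectors, whose median difference was −0.09. With a replicate block the adjusted p was 0.105 for Pla2g4a and 0.108 for Pik3cg. Leaving out 1 array gave 0.0758 to 0.137 for Pla2g4a, and 0.0831 to 0.119 for Pik3cg except without MR 4-25 3, where it was 0.0371; with normexp background correction they were 0.266 and 0.518, with differences of 1.83 and −1.10. Over 20 alternatives the difference ran from 1.23 to 3.55 for Pla2g4a, which passed in 11, and from −2.13 to −1.10 for Pik3cg, which passed in 12. In the same list Adcy7, an adenylyl cyclase of haematopoietic cells, was lower on every MR 4-25 array (difference −1.12 ± 0.21, SE). Its adjusted p of 0.09999 missed the threshold, and with slide as a block it passed, at 0.0449.

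None of the other 6 lists had a call at the adjusted threshold. The 28 G protein subunits, all tested, had a median difference of 0.23 and a range of −2.58 to 1.13. Gnai2, the main Gi alpha subunit of lymphocytes, differed by 0.13 and Gna13 by 0.04. The 11 receptor kinases and arrestins had a median of 0.18, the 14 tested genes of sphingosine 1-phosphate metabolism −0.01, the 10 of lysophosphatidic acid metabolism −0.13, the 13 of adenosine and nucleotide handling −0.06 and the 3 of oxysterol synthesis 0.29.

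A pattern that follows arrays and not lines was seen in some members. For 17 of the 103 tested members (16.5%, against 8.97% of all genes tested) the lowest levels were those of Neo 3 and MR 4-25 3, more than 1 log2 unit below the other 4 arrays. These are the arrays of slide 2, 1 from each line. Signals did not only drop on that slide. Members well above background on all 4 slide 1 arrays and on neither slide 2 array numbered 10. The reverse, both slide 2 arrays and no slide 1 array, held for 6 members. The medians of the 17 members were −3.57 and −3.50 on Neo 1 and Neo 2, −3.83 and −3.82 on MR 4-25 1 and MR 4-25 2, and −6.18 and −6.08 on Neo 3 and MR 4-25 3. Adora2b, Gpr18, P2ry2, Ptgdr2 and Rgs5 are among them, each read on its brightest probe. The second Ptgdr2 probe was also low on slide 2 (−7.53 and −6.97). The second P2ry2 probe was low on MR 4-25 3 (−6.97) but not on Neo 3 (−5.38, beside −5.22 and −5.21 on Neo 1 and Neo 2). For both genes the −6.97 is the bottom value of MR 4-25 3. The second Rgs5 probe was highest on slide 2 (−4.64 and −3.66). Another 8 members (7.77%, against 1.88% of all genes) were lowest on Neo 1 and MR 4-25 3 by the same margin, on different slides; S1pr1, Adora3, Rgs8, Gpr135, Gpr142, Gpr143 and Gpr158 are among them. The medians of the 8 were −6.27 and −6.70 on those 2 arrays and −2.94 to −2.54 on the other 4.

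**Figure D5:**
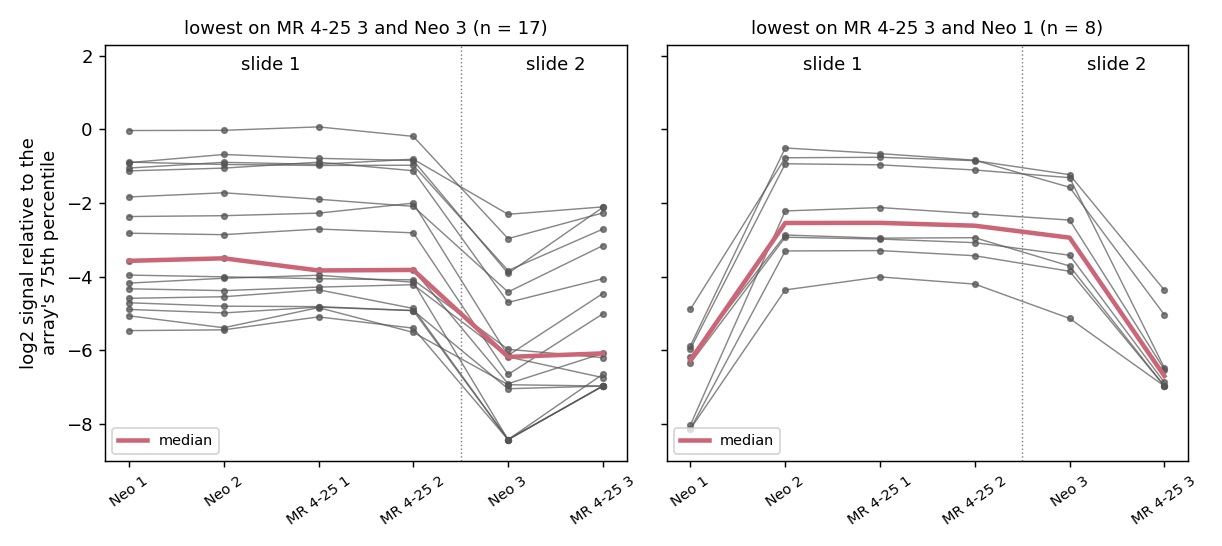
Level of each member (grey lines, log2 relative to the 75th percentile of the array) on the 6 arrays, slide 1 left and slide 2 right of the dotted line, for the 17 members lowest on Neo 3 and MR 4-25 3 and the 8 lowest on Neo 1 and MR 4-25 3; red lines are medians. Each set holds 1 Neo and 1 MR 4-25 array among its low arrays, so the differences between lines are small beside the drops.

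Because each of these 2 low pairs holds 1 array of each line, the drop largely cancels in the difference and widens its error. Differences lay between −0.14 and 0.70 for the 17 members and between −0.11 and 0.82 for the 8. A further 3 members (2.91%, against 0.112% of all genes) were lowest on MR 4-25 2 and MR 4-25 3 by the same margin. They are Gpr157, Gpr31b and P2ry10, and there the drop does not cancel but enters the difference. Both low arrays are of MR 4-25, so an array effect and a difference between the lines cannot be told apart there. For P2ry10, MR 4-25 1 (0.16) also lay below every Neo array (1.14 to 1.35). The spread within lines was larger in the members than in genes as a whole, with a median SD of 0.89 against 0.39. Their median level was lower, at −3.39 against −1.80. Among genes above the 75th percentile the median SD was 0.38 for 17 members and 0.19 for 7796 genes. There too the median level of the members was lower, at 1.30 against 2.35. The part of signal level in the spread was not tested. The slide and the dimness of MR 4-25 3 move with the pattern, and their part in it was not tested.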

How the data were processed

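RNA of 3 Neo and 3 MR 4-25 samples was read on Agilent whole mouse genome arrays in 1 colour. The authors deposited scanner output whose processed signal is a background-corrected Cy3 intensity, made with Agilent's scanner software Feature Extraction (9.5.3.1 in the headers, 9.5 per the submitters' processing notes); a value table deposited with it holds the same intensities. Probe positions are on mm7 per the file headers.

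From these, control spots were left out, outlier spots masked, repeat spots of each probe averaged as log2 and the log2 of the 75th percentile over the 43379 gene spots of each array subtracted. Probes marked well above background on 3 or more of the 6 arrays were kept (30965 of 41174; 34 had been dropped for masked spots), named through a RefSeq table of assembly GRCm38.p6, and the brightest probe stood for a gene. Lines were compared over 21341 genes with limma 3.58.1 (R 4.3.3; lmFit, eBayes, Benjamini-Hochberg), two-sided. The fit was tested on simulated data. Figures used Python 3.11.15 and matplotlib 3.10.9. The number of arrays limits the precision.

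The members, the gene lists and the rule for named genes were chosen with earlier results of these data known. Named were members past the test, members detected in 1 line alone, the 5 brightest of each name family, a set known in lymphocytes, the 5 largest differences that missed the test, and members whose probes differed in sign with 1 past the test. This gave 50 members; 3 further names were not matched by the rule for members, and a few members are not reported here. Wls, Gpr160, Lpar4, Lpar3, Ptgdr2, Rgs5 and the Gpr names and Rgs8 of the array pattern were named after their values were seen, as were Adcy7, Ptgs1, Ptgs2, Gnai2, Gna13 and the neighbouring genes.

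Replicate numbers were checked as pairs. The deviations of same-numbered arrays from the means of their lines correlated at 0.291, 0.214 and 0.557 across 21341 genes, which are not independent, and each is above 0.1, so results of a replicate block stand beside each call they change. Crossed arrays of slide 1 correlated at 0.413 and 0.380, so number and slide are not separated by this check. Alternatives covered background correction, normalization, filter, probe summary, naming, variance model, array weights, slide, replicate block, threshold and each array left out.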

Additional observations from a re-analysis of the deposited data

How the results depend on the processing

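The comparison as reported called 263 genes, 0 members higher, 1 member lower and 2 pathway list genes. With a replicate block these became 1 gene, 0 members lower and 0 list genes, and Adgrg3 had an adjusted p of 0.127; this block, which pairs the arrays, ended every call named in the text. Normexp correction called 80 genes, 0 members lower and 0 list genes, while the median difference of all genes moved to 0.34 and that of the members to 0.64. Normexp with quantile normalization called 504 genes and 4 list genes. A filter on all 6 arrays, which tests fewer genes, called 524 genes, 1 member higher (Rgs12), 2 lower (Adgrg1 and Adgrg3) and 5 list genes. An intensity trend with a robust fit called 718 genes, 1 member higher (Rgs12), 3 lower (with P2ry10) and 7 list genes. Array weights called 2018 genes (9.46%), 3 members higher, 6 lower and 14 list genes. Slide as a block called 2 members lower (Adgrg1 and Adgrg3), and slide 1 alone 124 genes, 0 members lower and 0 list genes. At an adjusted p of 0.01 there were 33 genes, 0 members lower and 0 list genes, at 0.10 there were 511 genes, 1 member higher and 4 list genes, and with every probe tested 401 probes and 2 members lower (Adgrg3 and Rgs3). Leaving out 1 array at a time called 0 to 223 genes, 0 to 1 members lower and 0 to 3 list genes. Where a cause is not named, it was not tested. Members detected in MR 4-25 were 57 on all 3 arrays, 95 on at least 2, and 60 to 88 with 1 array left out. Adgrg3 kept its sign in 20 of 20 alternatives (−2.17 to −1.54; adjusted p 0.00168 to 0.140) and passed in 12. Of 725 alternative values of the 37 named members tested, 80 had the other sign, none past the test; dim signals limit these.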

Other observations

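Several members lie close together in the RefSeq order of protein-coding genes, and their values are given side by side. On chromosome 3, Gpr171, P2ry14, P2ry13 and P2ry12 lie in 1 group. Gpr171 differed by 1.18 ± 0.34 (SE, adjusted p = 0.233), while the 3 P2ry genes were too dim to be tested. On chromosome 1, Rgs2 is followed by Rgs13, Rgs1, Rgs21 and Rgs18. Rgs13 differed by −0.15 ± 0.52 (SE, adjusted p = 0.935) where Rgs2 differed by 1.87 ± 0.44 (SE, adjusted p = 0.168). On chromosome X, P2ry10 is followed by P2ry10b, a close copy whose RNA the P2ry10 probe may also bind; P2ry10b differed by −1.73 ± 0.36 (SE, adjusted p = 0.128), beside −1.93 ± 0.41 for P2ry10 (SE, adjusted p = 0.130), and Gpr174 next to them was not well above background. None of these differences passed the limma test.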
